A study of Mus musculus with 8 samples.

Results

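The genes of the oxygen-sensing pathway described here are the 10 that encode the subunits of hypoxia-inducible factor (HIF) and the enzymes that mark it for destruction or inactivation. They are the alpha subunits Hif1a, Epas1 and Hif3a, the beta subunits Arnt and Arnt2, the prolyl hydroxylases Egln1, Egln2 and Egln3, the ubiquitin ligase component Vhl, and the asparagine hydroxylase Hif1an. They were taken by gene symbol from the table of array values. All 10 were found, each with 1 probe set, among 19505 named genes, and none was filtered out for a low level. The samples were T cells of the CD4 and CD8 lineages from the spleens of male wild-type C57BL/6 mice of unstated age. Both groups were stimulated with microbeads carrying antibodies to CD3 and CD28, 1 bead per cell, and cultured for 48 h. In 4 samples human beta-defensin-2 (hBD-2), a small cationic antimicrobial peptide of epithelia, was added at 60 µL/mL, a volume whose peptide content is not given. In the other 4 samples phosphate-buffered saline (PBS), the vehicle, was added. The labels name 4 mice for the 8 arrays without saying which array came from which mouse, so p-values measure the spread between these samples.

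Cells read oxygen through hydroxylases that act on the HIF alpha protein. When oxygen is present, the prolyl hydroxylases add a hydroxyl group to the HIF alpha protein, the VHL protein binds the modified form, and the ligase around VHL tags it for the proteasome. Hif1an (factor inhibiting HIF) adds a hydroxyl group to an asparagine and so blocks the binding of the coactivators p300 and CBP. When oxygen is scarce the alpha protein lasts, pairs with ARNT and binds DNA at the core letters ACGTG or GCGTG. In T cells, stimulation of the antigen receptor also raises HIF-1 alpha protein, which drives glycolysis in effector cells. Egln1 and Egln3 are themselves known targets of HIF, which forms a feedback loop. The arrays measure RNA, and neither the amount nor the hydroxylation of HIF protein was measured.

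The upstream windows of the 3 prolyl hydroxylase genes are printed because 2 of them, Egln1 and Egln3, fell with hBD-2 and Egln2 had a difference near 0. RefSeq promoter entries (GRCm38.p6) were found for 9 of the 10 genes. Each window is the 250 bases before an annotated transcript start, given 5′ to 3′ on the gene's strand, and capitals mark ACGTG or GCGTG on either strand (CACGT or CACGC where the match lies on the other strand). Egln1 is at chr8:124949255-124949504, minus strand, Egln3 at chr12:54203875-54204124, minus strand, and the outer of 2 Egln2 windows at chr7:27166803-27167052, minus strand.
Egln1: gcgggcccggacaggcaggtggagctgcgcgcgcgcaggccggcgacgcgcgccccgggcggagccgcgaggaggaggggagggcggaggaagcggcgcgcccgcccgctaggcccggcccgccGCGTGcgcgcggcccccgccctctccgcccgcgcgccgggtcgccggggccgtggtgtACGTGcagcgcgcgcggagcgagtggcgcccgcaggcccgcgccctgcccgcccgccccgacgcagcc
Egln3: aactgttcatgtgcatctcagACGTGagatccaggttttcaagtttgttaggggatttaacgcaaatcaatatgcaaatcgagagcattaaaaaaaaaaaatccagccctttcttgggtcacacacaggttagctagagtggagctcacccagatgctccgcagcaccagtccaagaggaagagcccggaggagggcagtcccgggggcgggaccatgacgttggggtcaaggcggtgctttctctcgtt
Egln2: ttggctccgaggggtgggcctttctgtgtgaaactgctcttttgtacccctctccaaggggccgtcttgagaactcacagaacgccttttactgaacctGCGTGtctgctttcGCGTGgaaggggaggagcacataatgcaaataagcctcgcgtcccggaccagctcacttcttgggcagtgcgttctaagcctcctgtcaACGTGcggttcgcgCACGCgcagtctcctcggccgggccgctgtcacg

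The Egln1 window held 1 ACGTG, at -68 to -64 from the start, and 1 GCGTG. The Egln3 window held 1 ACGTG, at -229 to -225 from the start. The outer Egln2 window held 4 matches, 1 of ACGTG and 3 of GCGTG, and the inner one 1 GCGTG. Among the other genes, the Hif1a window had 3 matches of ACGTG, 2 of them the overlapping strands of 1 CACGTG. Hif3a had 2 and Arnt 1 match of GCGTG, and Arnt2, Vhl and Hif1an had 0 matches. Of 32851 windows of that length in the table, 16.6% held ACGTG, 28.2% held GCGTG and 38.6% held either, so matches are common. They describe letters and not bound sites.

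The array medians lay between 5.30 and 5.42 and the lower quartiles between 3.62 and 3.78 log2 units. The interquartile ranges were 3.45 to 3.64 on hBD-2 arrays and 3.64 to 3.76 on PBS arrays, which overlapped slightly and did not differ past the threshold (exact permutation test, two-sided, p = 0.0571). Replicates 3 and 4 of hBD-2 were the narrowest. All 11 T cell markers were no lower than the percentile 94.8 of all genes, none passed the test, and their mean lay between 10.38 and 10.48 on hBD-2 arrays and between 10.36 and 10.45 on PBS arrays. The mean of 7 B cell markers ran from 4.79 to 6.00 on hBD-2 arrays and from 4.64 to 5.43 on PBS arrays, and was highest on replicates 2 and 4 of each group. Of 6 mast cell and basophil markers, Cpa3 and Fcer1a rose (adjusted p in limma = 0.0132 and 0.0323), while Kit had a log2 fold change of the other sign that did not pass (-0.67, adjusted p in limma = 0.0744). The list's mean was 4.58 to 5.00 on hBD-2 arrays and 4.39 to 4.48 on PBS arrays. Of 7 myeloid markers, Itgam fell (adjusted p in limma = 0.0461), while Cd14 and Lyz2 had log2 fold changes of 0.32 and 0.52 that did not pass (adjusted p in limma = 0.0740 and 0.287), and the mean was 4.04 to 4.49 on hBD-2 arrays and 4.10 to 4.37 on PBS arrays. Of 4 erythroid markers, Klf1 rose (adjusted p in limma = 0.0441), and the mean was 5.37 to 5.54 on hBD-2 arrays and 5.17 to 5.36 on PBS arrays. The call was lost in 14 of 20 alternatives for Klf1, 9 of 19 for Itgam, 8 of 19 for Fcer1a and 1 of 20 for Cpa3, and Kit passed in 5 of 20. Removal of single arrays ended it in 7, 7 and 4 cases for Klf1, Itgam and Fcer1a, with adjusted p in limma of up to 0.119, 0.126 and 0.0940. Of 5 NK cell markers 0 passed, where 4.46% of all genes did, with means of 4.47 to 4.77 on hBD-2 arrays and 4.64 to 4.88 on PBS arrays. Klre1 among them had a log2 fold change of -0.63 (adjusted p in limma = 0.0900) and passed in 3 of 20 alternatives. Of 9 endothelial and stromal markers 0 passed, with means of 4.71 to 4.88 on hBD-2 arrays and 4.45 to 4.72 on PBS arrays. The endothelial markers Tek, Kdr, Cdh5 and Emcn and the NK markers Ncr1, Klrb1c and Tyrobp had means below 3.78, the highest lower quartile of the arrays. So did Cr2 of the B cell list, Flt3 and Csf1r of the myeloid list and Ms4a2 of the mast cell and basophil list. Fcer1a averaged 3.72 on PBS arrays, and Itgam averaged 3.99 on hBD-2 arrays. The part of these differences in the results was not tested.

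Of the 10 genes, 2 changed, Egln3 and Egln1, and both fell. Over all 19505 genes 4.46% passed the same limma threshold, 3.66% lower and 0.800% higher. Among the members 7 had log2 fold changes below 0, with a median of -0.13 against 0.02 over all genes. In 4 members the groups did not overlap, 3 of them lower and 1 higher with hBD-2, against 14.9% of all genes (9.36% lower and 5.51% higher). An unadjusted p under 0.05 was reached by 5 members, Hif1a, Hif3a, Egln1, Egln3 and Vhl, against 22.3% of all genes. The other 8 members did not pass the test. In these bulk samples, fewer cells of a type and less RNA per cell cannot be told apart.

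**Figure D1:**
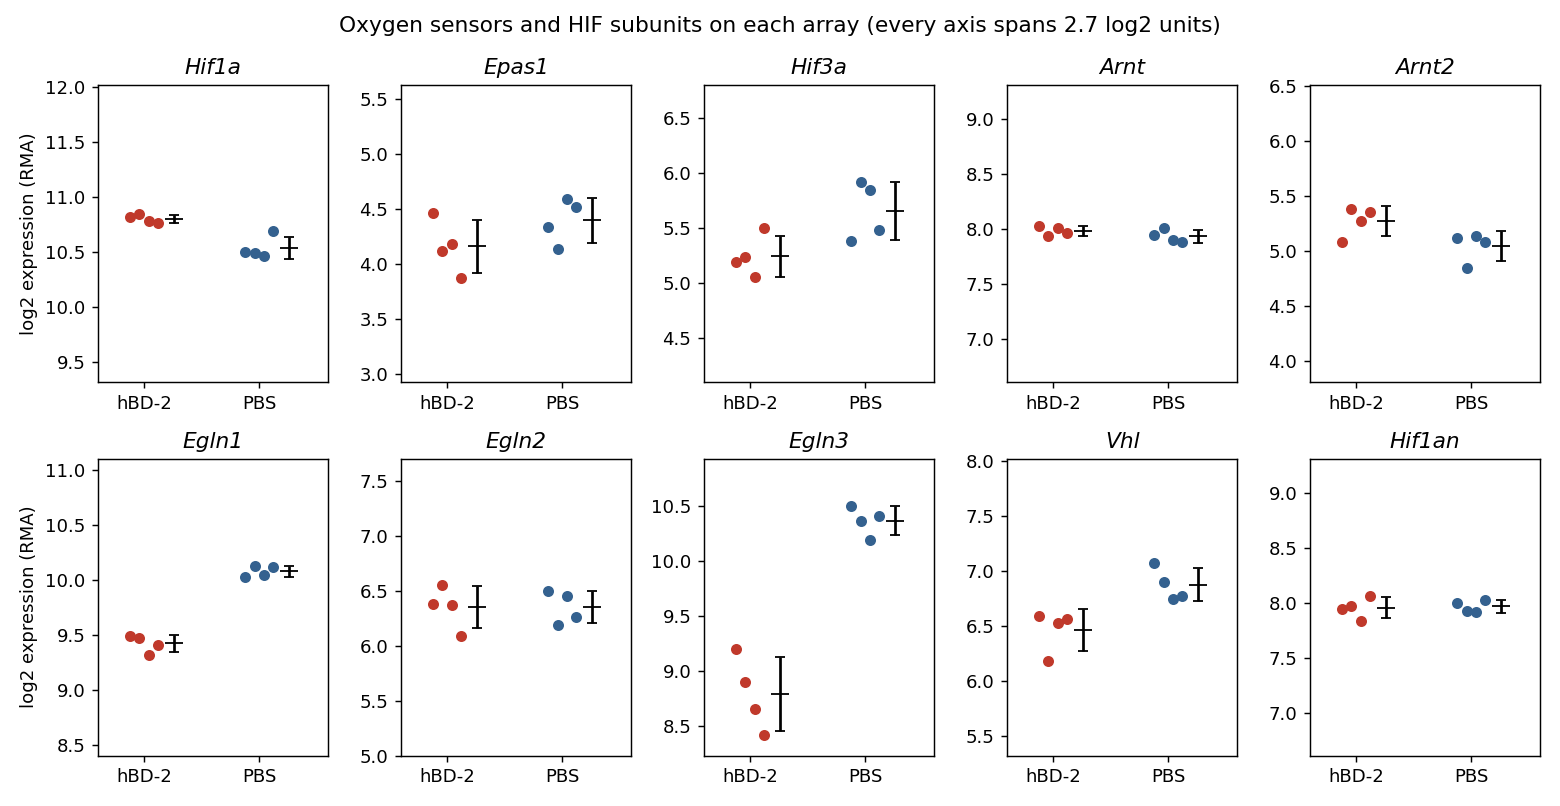
Log2 RMA expression of the 10 genes on each array, with hBD-2 arrays in red at the left of each panel, PBS arrays in blue, and the mean and SD beside the points (n = 4 each). The groups lie apart for Egln3, Egln1, Vhl and Hif1a and overlap for the other genes.

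Egln3 encodes PHD3, a prolyl hydroxylase that hypoxia induces strongly in many cell types. Its log2 expression was 9.21, 8.90, 8.66 and 8.42 on hBD-2 replicates 1 to 4, against 10.50, 10.37, 10.19 and 10.41 on PBS replicates 1 to 4. All 4 hBD-2 arrays were below all 4 PBS arrays, and the highest hBD-2 value was nearly 1 log2 unit under the lowest PBS value. The mean was 8.80 ± 0.338 with hBD-2 and 10.4 ± 0.130 with PBS (SD, n = 4). Egln3 fell 2.98-fold (log2 fold change -1.57, SE 0.152, adjusted p in limma = 0.000424), which placed it as the 11th largest decrease of all 19505 genes. The hBD-2 arrays also spread more than the PBS arrays, and the lowest 2 values were those of replicates 3 and 4, the arrays with the narrowest range of values. Without both of these arrays the log2 fold change was -1.32 (adjusted p in limma = 0.00617).

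Egln1 encodes PHD2, the main oxygen sensor of the family in most cells. It was at 9.49, 9.47, 9.32 and 9.41 log2 units on hBD-2 replicates 1 to 4, against 10.03, 10.13, 10.05 and 10.12 on PBS replicates 1 to 4. The groups did not overlap and each was tight, with means of 9.43 ± 0.0783 with hBD-2 and 10.1 ± 0.0502 with PBS (SD, n = 4). Egln1 fell 1.57-fold (log2 fold change -0.66, SE 0.0862, adjusted p in limma = 0.00204), as the 256th largest decrease. Without hBD-2 replicates 2 and 4, the arrays with the most B cell marker RNA of that group, its log2 fold change was -0.63 and no longer past the threshold (adjusted p in limma = 0.0822 with 2 hBD-2 arrays left).

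Egln2 encodes PHD1, a paralog that is not known as a hypoxia-induced gene. It was at 6.38, 6.55, 6.37 and 6.09 log2 units on hBD-2 replicates 1 to 4, against 6.50, 6.19, 6.45 and 6.26 on PBS replicates 1 to 4. The groups overlapped throughout. The log2 fold change was near 0 (95% interval -0.26 to 0.26, adjusted p in limma = 0.998), so a change of the size seen for Egln1 lies outside the interval. Its sign turned under other scalings, at 0.042 with quantile normalization repeated and 0.020 with cyclic loess.

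Vhl encodes the part of the ligase that recognises hydroxylated HIF alpha. Its log2 expression was 6.59, 6.18, 6.53 and 6.56 on hBD-2 replicates 1 to 4, against 7.07, 6.90, 6.75 and 6.77 on PBS replicates 1 to 4. The groups did not overlap, but the spread within them left a log2 fold change of -0.41 (SE 0.118, 95% interval -0.67 to -0.15) that did not pass over all genes (adjusted p in limma = 0.0746). The lowest array was hBD-2 replicate 2, and without it the log2 fold change was -0.31. With a variance trend, or with dim genes left out, the same difference passed (adjusted p in limma = 0.0309 and 0.0370).

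Hif1an encodes factor inhibiting HIF, which reads oxygen separately from the prolyl hydroxylases. It was at 7.95, 7.97, 7.83 and 8.07 log2 units on hBD-2 replicates 1 to 4, against 8.001, 7.93, 7.91 and 8.03 on PBS replicates 1 to 4. The groups overlapped. The log2 fold change was -0.01 (95% interval -0.21 to 0.18, adjusted p in limma = 0.949), and it turned to 0.089 with quantile normalization repeated and 0.069 with cyclic loess.

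Hif1a encodes the alpha subunit that T cells are best known for. It was bright, at the percentile 98.8 of all genes by mean level, with log2 values of 10.82, 10.85, 10.78 and 10.77 on hBD-2 replicates 1 to 4, against 10.50, 10.49, 10.47 and 10.69 on PBS replicates 1 to 4. All hBD-2 arrays were above all PBS arrays, though PBS replicate 4 came close. The log2 fold change was 0.27 (SE 0.0885, 95% interval 0.07 to 0.46, a ratio of 1.20) and did not pass over all genes (adjusted p in limma = 0.110). It passed with cyclic loess (log2 fold change 0.34, adjusted p in limma = 0.0465), with a variance trend (0.00251) and with dim genes left out (0.0484).

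Epas1 encodes HIF-2 alpha, best known from endothelial cells, macrophages and the erythropoietin response. It was dim, at the percentile 33.2 of all genes, with log2 values of 4.46, 4.12, 4.18 and 3.87 on hBD-2 replicates 1 to 4, against 4.34, 4.14, 4.59 and 4.52 on PBS replicates 1 to 4. The groups overlapped, with a log2 fold change of -0.24 (95% interval -0.54 to 0.06, adjusted p in limma = 0.338). Hif3a encodes another alpha subunit, of which a mouse splice form known as IPAS inhibits HIF-1, and the array's single probe set does not part its forms. It was at 5.19, 5.24, 5.05 and 5.49 log2 units on hBD-2 replicates 1 to 4, against 5.38, 5.92, 5.84 and 5.48 on PBS replicates 1 to 4. The groups met at hBD-2 replicate 4 and PBS replicates 1 and 4. The log2 fold change of Hif3a was -0.41 (SE 0.140, 95% interval -0.72 to -0.11) and did not pass (adjusted p in limma = 0.115).

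Arnt encodes the beta subunit shared by all HIF alpha proteins and by the aryl hydrocarbon receptor. It was steady across all arrays, at 8.03, 7.93, 8.01 and 7.96 log2 units on hBD-2 replicates 1 to 4, against 7.95, 8.01, 7.90 and 7.88 on PBS replicates 1 to 4. Its log2 fold change of 0.05 had a 95% interval of -0.13 to 0.23 (adjusted p in limma = 0.776). Arnt2, a close relative best known from neurons, was at 5.08, 5.38, 5.27 and 5.35 log2 units on hBD-2 replicates 1 to 4, against 5.12, 4.84, 5.13 and 5.08 on PBS replicates 1 to 4. Of the hBD-2 arrays, replicate 1 lay inside the PBS range and the other 3 above it. The log2 fold change of Arnt2 was 0.23 (95% interval -0.0033 to 0.46, adjusted p in limma = 0.231).

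**Figure D2:**
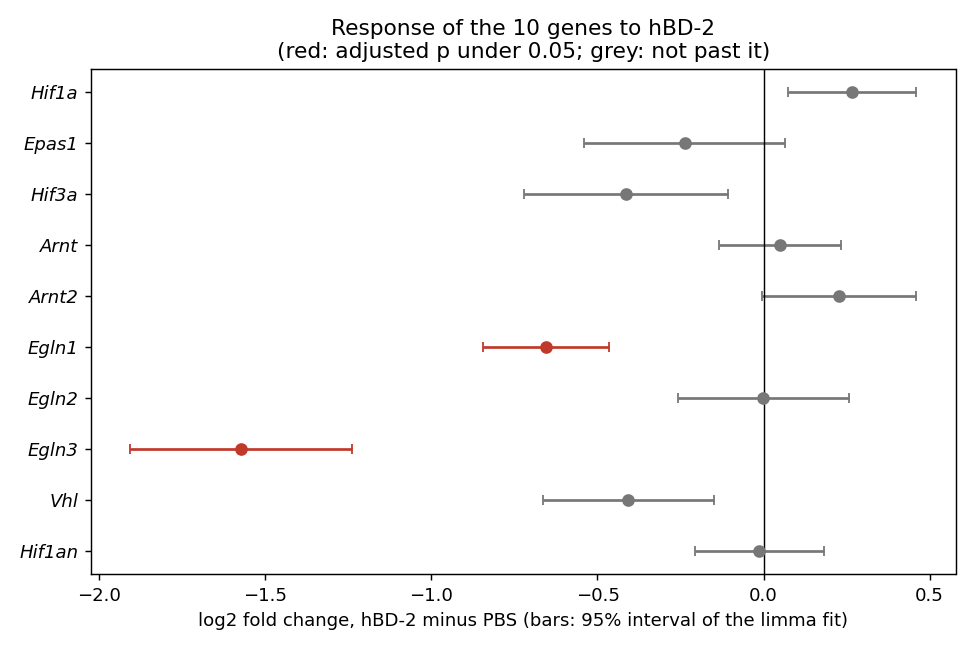
Log2 fold change, hBD-2 minus PBS, of the 10 genes with the 95% interval of the limma fit (n = 4 arrays a group), red where the adjusted p was under 0.05. Egln3 at -1.57 and Egln1 at -0.66 are the genes past the threshold, and the intervals of Hif1a, Hif3a and Vhl exclude 0 without passing over all genes.

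Whether members of a class changed unequally was asked within each array, as the log2 difference of the paralogs set to a PBS mean of 0. Of 7 pairs compared, 5 differed, each with exact permutation p = 0.0286, two-sided, the smallest that 4 arrays against 4 allow, and 0.04 after adjustment over the 7 pairs. These pairs share genes, so they are not independent results, and the adjusted value rests on 5 of them reaching the smallest p together. The pairs were chosen with earlier results of these data known. Egln3 was lower relative to Egln1 by a further 0.92 log2 units with hBD-2: the difference stood at -0.58, -0.86, -0.95 and -1.29 on hBD-2 replicates 1 to 4, against 0.19, -0.05, -0.14 and 0.00 on PBS replicates 1 to 4. The groups did not overlap, and the fall of Egln3 was 1.89 times that of Egln1 as a ratio of folds. Relative to Egln2, Egln3 differed by -1.57 ± 0.253 on hBD-2 arrays and 0 ± 0.202 on PBS arrays, and Egln1 by -0.65 ± 0.184 on hBD-2 arrays and 0 ± 0.198 on PBS arrays (SD, n = 4). The 3 prolyl hydroxylase genes thus formed an order of change, with Egln3 below Egln1 and Egln1 below Egln2.

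Among the alpha subunits, Epas1 moved down relative to Hif1a by 0.50 log2 units, with hBD-2 arrays between -0.75 and -0.22 and PBS arrays between -0.21 and 0.26. Hif3a moved down relative to Hif1a by 0.68 log2 units, with hBD-2 arrays between -0.85 and -0.39 and PBS arrays between -0.32 and 0.31. Hif3a and Epas1 did not differ from each other past the threshold (difference -0.18, exact permutation p = 0.486, 0.486 adjusted), nor did Arnt2 and Arnt (difference 0.18, exact permutation p = 0.229, 0.267 adjusted). Such differences show unequal change, not which gene of a pair moved.

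**Figure D3:**
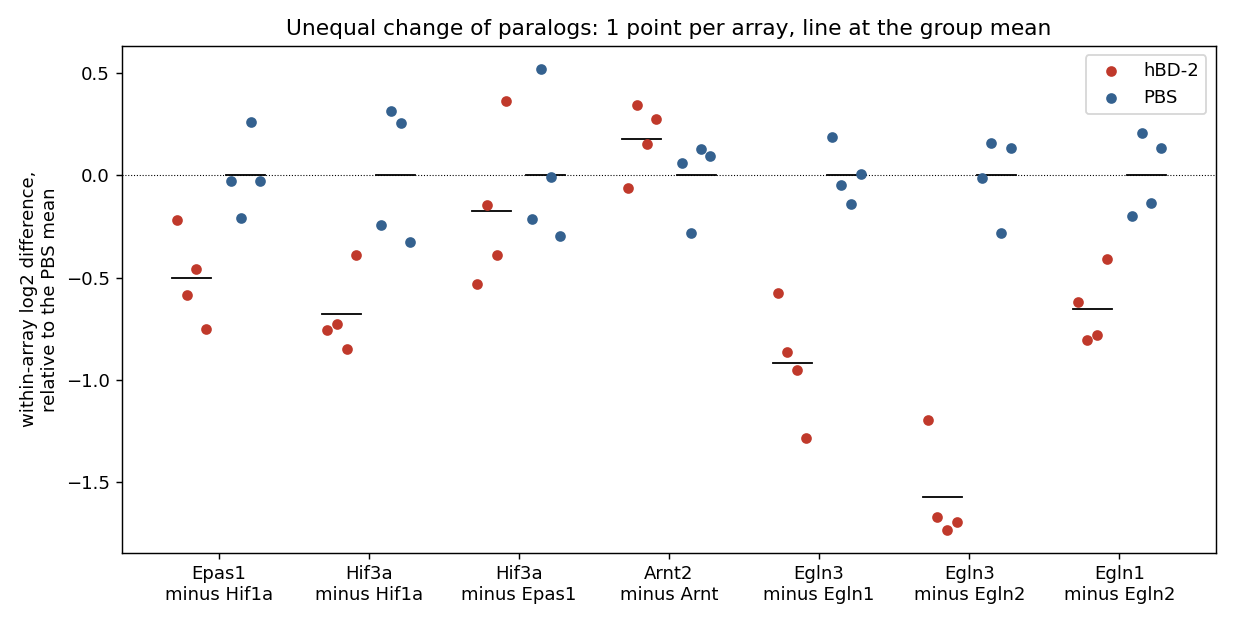
Within-array log2 difference of each of 7 pairs of paralogs relative to the PBS mean, with hBD-2 arrays in red to the left of PBS arrays in blue and a line at each group mean (n = 4). The groups lie apart in the 3 prolyl hydroxylase pairs and the 2 pairs that set an alpha subunit against Hif1a, and overlap in the other 2.

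The partners of VHL in its ligase did not pass, and a joint change was not tested. Of 7 matched genes of 8 listed, 0 fell or rose, where 4.46% of all genes changed, with a median log2 fold change of -0.20 against 0.02 over all genes. Eloc (elongin C, which bridges VHL to the cullin) averaged 8.25 ± 0.193 log2 units with hBD-2 and 8.60 ± 0.0777 with PBS (SD, n = 4), and the groups did not overlap (adjusted p in limma = 0.0912). Cops5, a subunit of the signalosome that removes NEDD8 from cullins, had a log2 fold change of -0.31 (adjusted p in limma = 0.0950). Elob, the partner of elongin C, and Rbx1, the RING subunit, had log2 fold changes of -0.20 each (adjusted p in limma = 0.255 and 0.316). With quantile normalization repeated, Eloc, Cops5, Elob and Rbx1 had log2 fold changes of -0.26, -0.22, -0.12 and -0.09. With arrays centred on their medians they had -0.39, -0.35, -0.24 and -0.24.

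Genes that act on HIF stability or on its coactivators fell in 2 of 13 matched members of 17 listed, and 0 rose (median -0.22), where 3.66% of all genes fell and 0.800% rose. Hsp90aa1, a chaperone that binds HIF-1 alpha, averaged 10.3 ± 0.169 log2 units with hBD-2 and 10.8 ± 0.0930 with PBS (SD, n = 4), and fell 1.43-fold (adjusted p in limma = 0.0215). Cited2, a HIF-induced inhibitor that competes for p300 and CBP, fell 1.36-fold (adjusted p in limma = 0.0492). The call of Cited2 was lost in 14 of 20 alternatives and that of Hsp90aa1 in 7 of 20, among them the removal of 7 and 5 single arrays, so that the count of 2 fell to 0 without hBD-2 replicate 3 or 4 or without PBS replicate 1, 2 or 4. There the highest adjusted p in limma were 0.134 and 0.0711. Over all genes 279 to 339 fell in the settings with a count of 0, against 713 in the main fit. Siah2, a ligase for prolyl hydroxylases, had a log2 fold change of -0.46 (adjusted p in limma = 0.0802) and passed in 4 of 20 alternatives, among them the removal of hBD-2 replicate 2 (adjusted p in limma = 0.0310). Cited4, a relative of Cited2, had a log2 fold change of 0.39 (adjusted p in limma = 0.111).

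Of 11 other genes of the bHLH-PAS family, to which the HIF subunits belong, 0 passed (median 0.06). Npas3, Npas1, Sim2 and Clock, the circadian partner of ARNTL, had log2 fold changes of -0.35, 0.33, 0.30 and 0.20 (adjusted p in limma from 0.125 to 0.299). Npas3 lay below the arrays' lower quartiles, at 3.02 ± 0.198 with hBD-2 and 3.37 ± 0.159 with PBS (SD, n = 4), where RMA compresses differences.

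The prolyl hydroxylases and Hif1an belong to the enzymes that use oxygen and 2-oxoglutarate. Of 26 matched other members of 27 listed, 5 fell and 0 rose, with a median of -0.12, where 3.66% of all genes fell. Plod2, a lysyl hydroxylase of collagen, averaged 5.84 ± 0.174 log2 units with hBD-2 and 6.70 ± 0.0586 with PBS (SD, n = 4), and fell 1.82-fold (adjusted p in limma = 0.00116). The collagen prolyl hydroxylase subunits P4ha2 and P4ha1 fell 1.75-fold and 1.37-fold (adjusted p in limma = 0.0174 and 0.0150). Jmjd6, a lysyl hydroxylase of nuclear proteins, fell 1.52-fold (adjusted p in limma = 0.00687). The fifth gene, the histone demethylase Kdm6b, had a log2 fold change of -0.40 (adjusted p in limma = 0.0299), was named after its value was seen, and lost its call in 12 of 20 alternatives. The calls of P4ha1 and P4ha2 were each lost in 4 of 20, that of Jmjd6 in 2, and that of Plod2 in 0. Of the 26, 2 fell without PBS replicate 1 and 3 fell without hBD-2 replicate 3, hBD-2 replicate 4 or PBS replicate 2. With hBD-2 replicates 3 and 4 left out together 1 fell, and with hBD-2 replicates 2 and 4 left out 2 fell. Falls over all genes numbered 713 in the main fit and 279 to 339 with these single arrays left out. They numbered 112 without hBD-2 replicates 3 and 4 and 211 without hBD-2 replicates 2 and 4.

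Target genes of HIF fell in 20 of 26 listed members, all matched, and 0 rose, with a median of -0.56, where 3.66% of all genes fell. Ndrg1, a hypoxia marker, averaged 8.10 ± 0.253 log2 units with hBD-2 and 9.81 ± 0.0214 with PBS (SD, n = 4), and fell 3.27-fold (adjusted p in limma = 5.36e-05). Slc2a3, a glucose transporter, fell 3.38-fold (adjusted p in limma = 0.000250), Ero1a, an oxidase of the endoplasmic reticulum, 2.42-fold (adjusted p in limma = 0.000273), and Slc16a3, a lactate exporter, 2.27-fold (adjusted p in limma = 0.000632). The mean over the 26 genes was 8.33, 8.27, 8.03 and 8.17 on hBD-2 replicates 1 to 4, against 8.91, 8.95, 8.84 and 8.86 on PBS replicates 1 to 4. P4ha1, P4ha2 and Kdm3a are in both this list and that of the oxygenases. The list was chosen with falls of such genes already known and is not independent evidence of its direction. The count was 9 with hBD-2 replicates 3 and 4 left out, 11 with hBD-2 replicates 2 and 4 left out, and 13 without PBS replicate 1. Over all genes 112, 211 and 279 fell in the same settings, against 713 in the main fit.

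**Figure D4:**
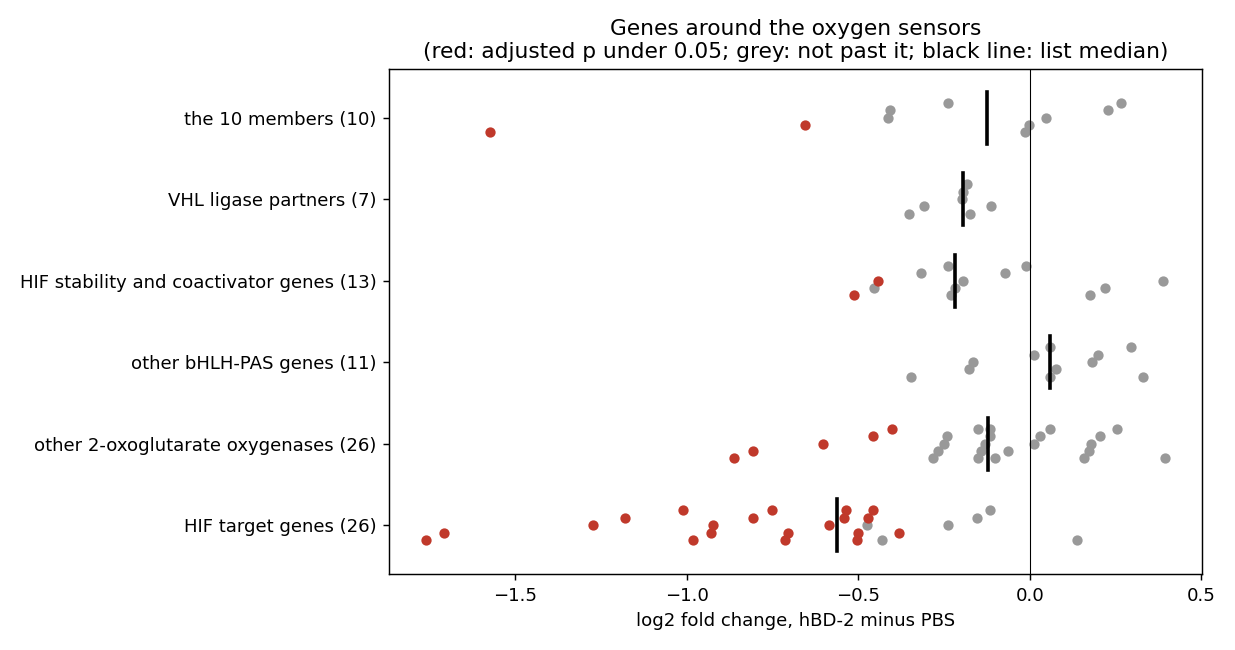
Log2 fold change, hBD-2 minus PBS, of each gene of the 10 members and of the 5 lists around them, 1 point a gene, red where the limma adjusted p was under 0.05, with the list median as a black line. The list of HIF target genes has its median at -0.56 and 20 of 26 genes in red, while the other bHLH-PAS genes scatter around 0.06 with 0 in red.

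Across the 8 arrays the genes most like Egln3, among 11703 other genes not under percentile 40 by their mean, were Kars, a lysyl-tRNA synthetase (Pearson r = 0.998), Clybl, a mitochondrial lyase (0.996), and Pgm1, a phosphoglucomutase (0.996). Of these, Clybl and Pgm1 fell, with log2 fold changes of -1.08 and -0.96, and Kars had one of -0.28 (adjusted p in limma = 0.000808, 0.000864 and 0.0827). Ranked instead by deviations from the group means, Stxbp5, Thoc3 and Lyrm4 led (r = 0.994, 0.994 and 0.986). For Hif1a the leaders over the 8 arrays were Lamp1, Stx18 and Kdm6a (r = 0.971, 0.971 and 0.969), none of which passed the test, and by deviations Csnk2a2, Ppp2r5e and Prpsap1 (r = 0.959, 0.959 and 0.958). All these values share the same 8 arrays and are the highest of many, and serve as description.

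**Figure D5:**
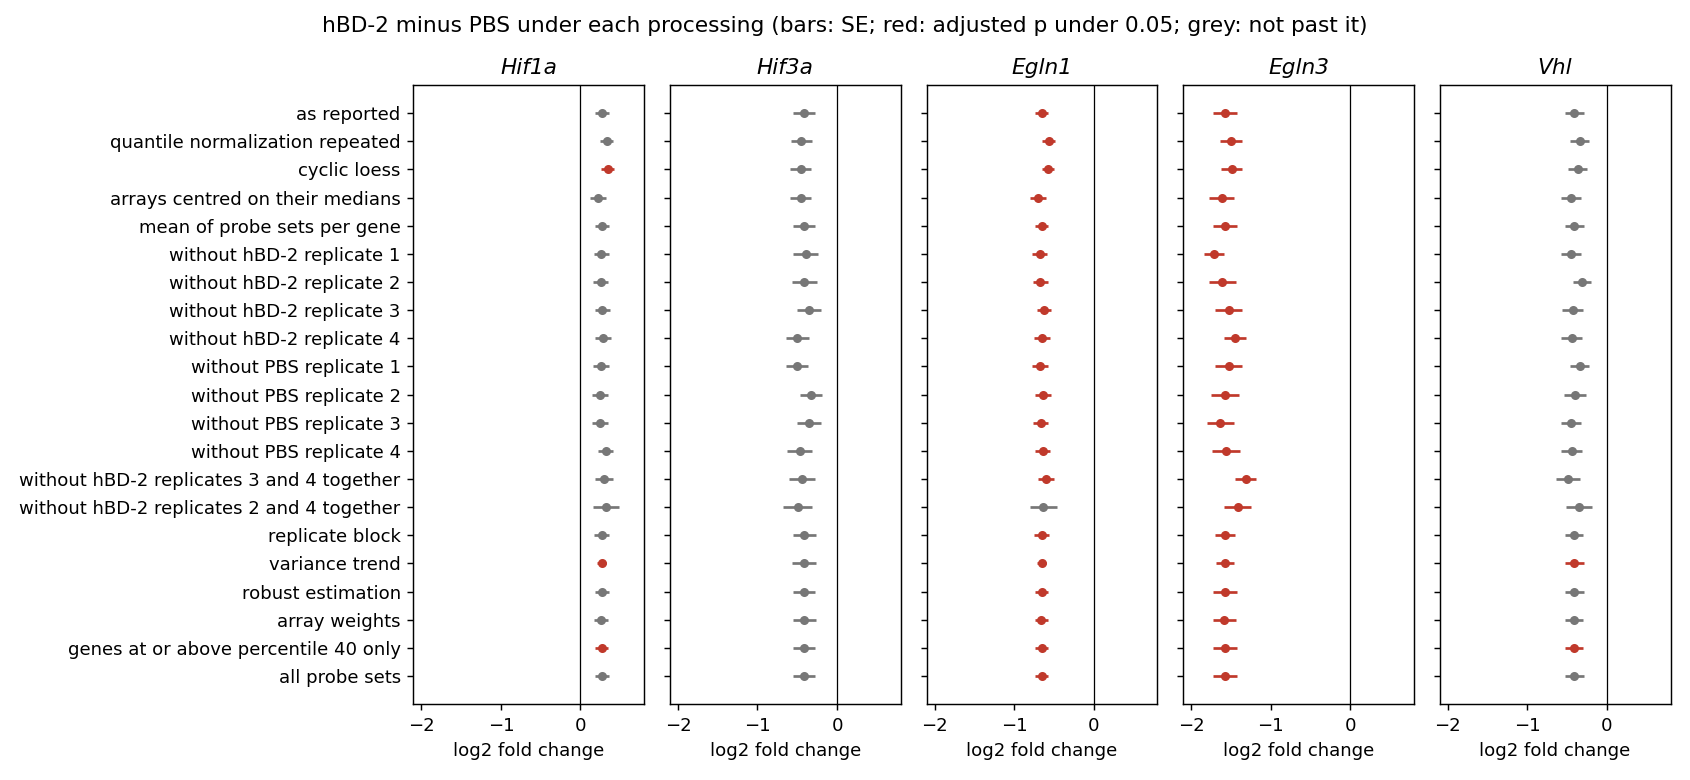
Log2 fold change, hBD-2 minus PBS, with its SE for Hif1a, Hif3a, Egln1, Egln3 and Vhl as reported and under 20 other settings, red where the limma adjusted p was under 0.05. Egln3 stays past the threshold throughout, Egln1 in all but 1 setting, Hif1a passes in 3 and Vhl in 2 of the 20, and Hif3a in 0.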

How the data were processed

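T cell RNA was measured on 8 one-colour Affymetrix arrays, and the log2 values of 22203 probe sets were used as deposited. They were made with oligo and RMA, per the submitters' processing notes. For these tools the sources used here give no version, setting or build. RMA (robust multi-array average) corrects background, normalizes between arrays and pulls low signals towards a floor, so changes of dim genes are understated.

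Of the probe sets, 19572 have 1 symbol in the platform's annotation, and the other 2631 do not and stay unnamed. A RefSeq table of GRCm38.p6, matched on the gene identifier, changed 0 symbols. For 55 genes with several probe sets the brightest was kept, which left 19505 genes. Groups come from the sample titles, and all 8 columns were used.

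hBD-2 and PBS were compared with limma 3.58.1 in R 4.3.3 (lmFit, eBayes, no block), two-sided, at 0.05 after Benjamini-Hochberg adjustment for 19505 genes. Differences between paralogs were tested with exact permutation tests over arrays. The fit was tested on simulated data with independent noise in each gene and seeded decreases only. Such data lack variation that genes share on an array, so they do not test the fit for it. No array was dropped. The number of arrays limits the precision, and scan dates and detection calls were not used here.

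The 10 genes, the lists and the tests were chosen with earlier results of these data known. Named genes are all 10 members, up to 4 genes with the smallest p of each other list, and, for Hif1a and Egln3, 3 genes by each of 2 measures of likeness. Alternatives were 3 normalizations, 3 variance or weight settings, 2 choices of probe sets, a filter on dim genes, the replicate block and left-out arrays. Leaving out hBD-2 replicates 2 and 4 was chosen after seeing the data. Same-numbered arrays of the groups had correlations of deviations from the group means of 0.18, 0.059, 0.16 and 0.0048. Arrays of different numbers had -0.15 to 0.091, so 0.18 and 0.16 lay above all of these. These values do not decide whether the numbers mark pairs. The labels do not state pairs, so the main fit did not treat the numbers as pairs, and the replicate block was an alternative.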

Additional observations from a re-analysis of the deposited data

Results flagged for a closer look

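In 132 groups of 4 values, 6 arrays stood apart from the other 3 of their group, where chance gives about 1 in 20 groups. Vhl on hBD-2 replicate 2 was at 6.18, against 6.53 to 6.59 on the other hBD-2 arrays, so this array carries part of the lower Vhl mean. Hif1a on PBS replicate 4 was at 10.69, against 10.47 to 10.50 on the other PBS arrays. The difference of Egln3 and Egln2 on hBD-2 replicate 1 was -1.20, against -1.73 to -1.67 on the other hBD-2 arrays, and that of Arnt2 and Arnt on PBS replicate 2 was -0.28, against 0.06 to 0.13 on the other PBS arrays. Sim2 and Col1a2 on PBS replicate 1 were at 3.93 and 4.40, against 4.21 to 4.25 and 4.75 to 4.79 on the other PBS arrays.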

How the results depend on the processing

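Egln3 kept its direction and its call in all 20 alternatives (log2 fold change -1.71 to -1.32), and Egln1 its direction in all 20 (-0.70 to -0.57) and its call in 19, lost at -0.63 without hBD-2 replicates 2 and 4. That setting left 1 member changed, and a variance trend or the removal of dim genes gave 4, adding Hif1a (0.27 in both) and Vhl (-0.41 in both). The calls over all genes moved too, from 869 in the main fit to 257 in that setting and 2032 with a variance trend. With dim genes removed 1541 of the fewer genes left were called. Cyclic loess added Hif1a (0.34), with 796 calls over all genes. For the members, some alternatives can alter only the p and not the log2 fold change. They are the replicate block, the variance trend, robust estimation, the filter on dim genes and the 2 choices of probe sets. Signs that turned belonged to genes that passed in no setting. Egln2 turned to 0.042 (quantile), 0.020 (cyclic loess), 0.12 (without hBD-2 replicates 3 and 4) and 0.018 (array weights), and lay between -0.068 and 0.085 with single arrays left out. Hif1an turned to 0.089 (quantile) and 0.069 (cyclic loess), and lay between -0.051 and 0.026 with single arrays left out. Among genes of the other lists, Alas2 turned to -0.013 (quantile) and -0.020 (cyclic loess), Klrb1c and Epor to -0.0035 and -0.0014 (cyclic loess), and Pax5 and Epor to -0.0098 and -0.17 without hBD-2 replicates 2 and 4. With single arrays left out Klrb1c lay between -0.13 and 0.14 and Epor between -0.061 and 0.15. The cause of these turns was not tested.

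Of all genes, 869 changed, 82.0% of them lower, or 69.7% with quantile normalization, 72.4% with cyclic loess and 89.3% with arrays centred on their medians. The count was 312 (without PBS replicate 1) to 1396 (without hBD-2 replicate 1) with single arrays left out, 128 without hBD-2 replicates 3 and 4, 257 without hBD-2 replicates 2 and 4, 2032 with a variance trend and 1541 with dim genes left out. With the replicate block it was 857, with Egln3 and Egln1 still past the threshold (limma adjusted p = 0.000690 and 0.00848). Of the other named genes the block changed 4 calls: Siah2 passed (limma adjusted p = 0.0434), and Klf1, Fcer1a and Kdm6b no longer did (0.0684, 0.0575 and 0.0588). Whether same-numbered arrays share a mouse is not stated, and the check of deviations does not decide it. A sign-flip test within replicate numbers cannot give a p under 0.125. The 7 differences of paralogs kept their sign in all 14 settings. That test, centring on medians and averaging of probe sets cannot change these differences, as each member has 1 probe set. In other settings Hif3a minus Epas1 shrank to -0.0032 and Arnt2 minus Arnt to 0.028. RMA limits what can be seen of dim genes such as Epas1.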
